A study of Mus musculus with 4 samples.

Results

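The genes described here are 10 members of the MHC class I antigen presentation pathway, out of 17574 genes measured: the class I heavy chain genes H2-K1, H2-D1, H2-Q4 and H2-T23, the light chain gene B2m, the peptide loading genes Tap1, Tap2 and Tapbp, and the immunoproteasome subunit genes Psmb8 and Psmb9. They were chosen by name, and all 10 were found. Bulk RNA sequencing was done on tumours of SCC7, a mouse squamous carcinoma line, injected under the skin of wild-type C3H/HeN mice. The control group (2 tumours) and the anti-CD71 group (2 tumours, antibody against the transferrin receptor CD71 given on days 6 and 9) were both harvested on day 10. What the control mice received is not given in the sources used here, nor are age and sex. Each library is taken as 1 tumour, and no label says whether tumours were pooled. If they were not from separate mice, the p-values do not measure the spread between mice.

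MHC class I molecules display peptides from inside the cell to CD8 T cells, and they also engage receptors of natural killer cells. Proteasomes cut cytosolic proteins into peptides, the TAP transporter carries the peptides into the endoplasmic reticulum, and tapasin holds an empty class I molecule beside TAP until a peptide fits. The mature molecule is a heavy chain bound to beta-2-microglobulin. Interferon gamma raises most genes of the pathway and swaps constitutive catalytic subunits of the proteasome for immunoproteasome subunits. Nearly all nucleated cells make class I molecules, and leukocytes make much of them.

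Of the members, 9 lie in or next to the H2 complex on chromosome 17 and B2m lies on chromosome 2 (GRCm38.p6). Upstream sequence was found in RefSeq's table of that build for 9 of the 10, Tap2 being the exception. The stretches below are shown because they hold known control elements of class I genes. The first 3 are matching 30-base stretches of the H2-K1 (chr17:34000429-34000458, minus strand), H2-D1 (chr17:35262923-35262952, plus strand) and H2-Q4 (chr17:35379443-35379472, plus strand) upstream regions. The table gives H2-K1 a pair of starts, and the first was used, 82 bases past the end of its stretch. Both starts lie inside the full span of the annotated gene given below, and so does the H2-K1 stretch. Capitals mark matches to the enhancer A motif (the first run of capitals, searched with its eighth letter free), which NF-kappa-B proteins bind, and to a short form of the interferon-stimulated response element, GAANNGAAA, read here on the opposite strand.
H2-K1: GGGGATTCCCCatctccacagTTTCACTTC
H2-D1: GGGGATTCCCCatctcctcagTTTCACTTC
H2-Q4: GGGGATTTCCCatctccccagTTTCACTTC
H2-K1 and H2-D1 differed at 1 of these positions, and H2-Q4 differed from each of them at 2.

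The B2m stretch covers the 180 bases before its start (chr2:122147507-122147686, plus strand). Capitals mark, in order, the core of the interferon-stimulated response element (GAAA, any 2 bases, GAAA), an X2 box (TGACG) and a Y box (CCAAT, read on the opposite strand). X2 and Y boxes are parts of the module through which NLRC5 acts on class I genes.
B2m: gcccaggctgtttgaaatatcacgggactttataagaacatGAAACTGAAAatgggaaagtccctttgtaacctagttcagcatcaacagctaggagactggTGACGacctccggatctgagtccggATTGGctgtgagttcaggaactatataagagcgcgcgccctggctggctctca
Over the 250 bases before each start, searched on both strands, 6 of the 9 members (H2-K1, H2-D1, H2-Q4, B2m, Tap1 and Psmb9) held the X2 letters, against 17.8% of the 32851 promoters in the table. The Y letters were in 8 of 9, all but Psmb8, against 33.8% of promoters. The full response element core was in H2-T23 and B2m (2.98% of promoters), and the interferon gamma site letters TTCNNNGAA were in Psmb8 alone (7.02%). The short response element was found in H2-K1, H2-D1 and H2-Q4 (6.31% of promoters), as was enhancer A (0.0731%, or 24 promoters), but both of these motifs were picked after the sequences had been read. No member held both forms of the response element. Tap1 and Psmb9 start on opposite strands at 34187556 and 34187330, with 225 bases between the starts, so their upstream windows overlap and hold the same X2 and Y matches.

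The values are TPM, in which each transcript's abundance is divided by its length and scaled so that every library has the same total, so the read depth behind them is unknown. Both controls and anti-CD71 replicate 2 were complete, with 59881 transcripts each. The file of anti-CD71 replicate 1 used here ends inside a line and holds 13586 of them (22.69%), and a transcript not listed there is missing, not 0. Members were therefore compared over the 3 complete libraries, where anti-CD71 replicate 2 is the treated library and was assumed to vary like the controls, and then over the transcripts listed in all 4. Keratin genes were checked in the complete libraries, and Krt8 was at 1132.27 to 1255.9 TPM. The squamous markers Krt5 and Krt14 stood low in the controls, Krt5 listed at 0 and Krt14 at 0.09 and 0.1 TPM. Anti-CD71 replicate 2 had 31.4 TPM of Krt5, 36.37 TPM of Krt14 and 60.54 TPM of the hair keratin gene Krt25, which was listed at 0 in the other 3 libraries.

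All 10 members lay below both controls in anti-CD71 replicate 2, and 6 of them fell by limma, a linear model that shares variance among genes, at a Benjamini-Hochberg adjusted p under 0.05: H2-K1, H2-D1, H2-Q4, H2-T23, B2m and Psmb9. Each of the 10 passed the filter on low values. No member rose. Over all 11982 genes tested, 2.39% were called lower and 0.476% higher, and 42.5% lay below both controls in that library. The median log2 change was -0.52 for the members and -0.01 for all genes tested. Together the members held 13392.46 and 12775.41 TPM in the controls and 9006.71 TPM in the treated library, which is 1.34%, 1.28% and 0.901% of each library. In a bulk sample, fewer cells of a type and less RNA per cell cannot be told apart.

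**Figure D1:**
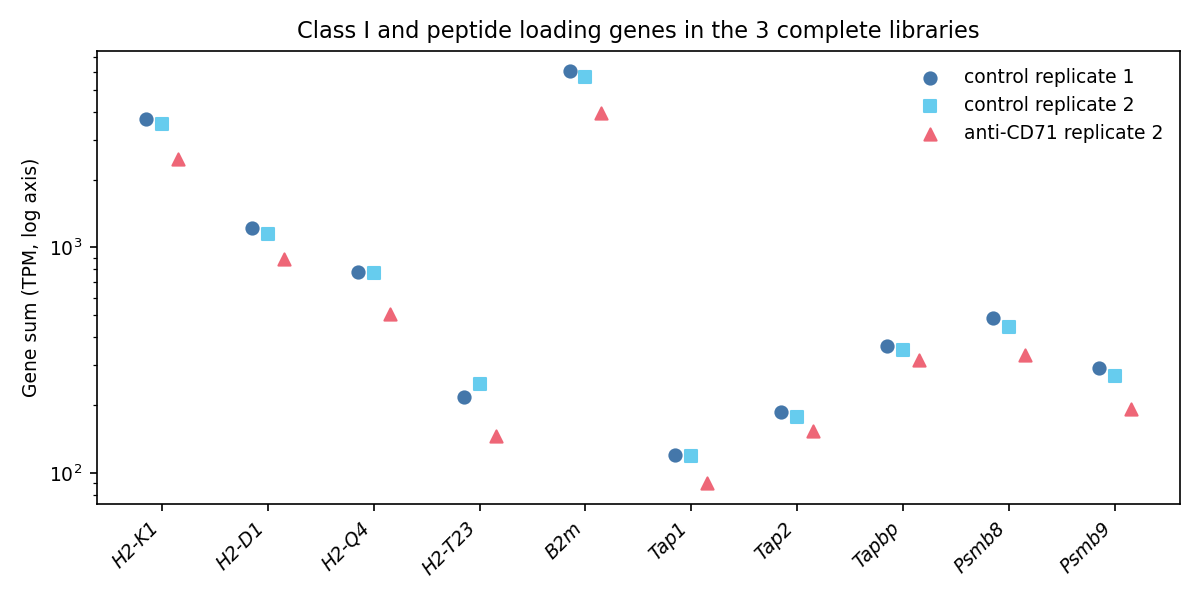
TPM (log axis) of each of the 10 genes in the 3 complete libraries, 1 point a library. The triangle of anti-CD71 replicate 2 lies under both control points for every gene, and levels run from about 90 TPM (Tap1, 89.96) to 6035.04 TPM (B2m).

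The call depended on the fit. No member was called by limma with no filter on low values, with a filter of 1 TPM in 1 library, or with no intensity trend in the variance prior, although 9, 9 and 8 of the 10 had an unadjusted p under 0.05 there. Over all genes those fits called 0.0%, 0.0963% and 0.184% lower. H2-K1, H2-Q4 and B2m were called under the other 5 alternatives with a test, Psmb9 under 2 of them, and H2-D1 and H2-T23 only where numbered rows, described further on, were left out.

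By mean over the complete libraries, B2m stood highest (5227.63 TPM), followed by H2-K1 (3229.32), H2-D1 (1081.18), H2-Q4 (684.66), Psmb8 (420.35), Tapbp (344.18), Psmb9 (251.37), H2-T23 (204.26), Tap2 (172.03) and Tap1 (109.87 TPM). TPM is per length, so these levels can be set side by side, within the limits set by numbered rows and shared sequence described further on. The ranges of Psmb8 and Tapbp, Psmb9 and H2-T23, and H2-T23 and Tap2 overlapped over the 3 libraries. The other neighbours in this order did not overlap, and of the overlapping ones only H2-T23 and Tap2 changed places, H2-T23 being the higher of them in 2 of 3 libraries.

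H2-K1, which encodes the classical K heavy chain (chromosome 17, 33996012 to 34000619), was at 3697.84 and 3532.46 TPM in the controls and 2457.66 TPM in the treated library. The treated value lay 30.4% below the lower control (log2 change -0.56, SE 0.05, adjusted p = 0.0249). H2-D1, the classical D heavy chain gene (35263094 to 35267497), was at 1215.34 and 1143.52 TPM in the controls and 884.67 TPM in the treated library. Its fall was smaller (log2 change -0.41, SE 0.06, adjusted p = 0.0488).

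H2-Q4, a heavy chain gene of the Q region (35379617 to 35384674), was at 776.5 and 772.76 TPM in the controls and 504.72 TPM in the treated library. The controls differed by little here, and the treated library was 34.7% below the lower of them (log2 change -0.62, SE 0.06, adjusted p = 0.0249). H2-T23 (36029977 to 36032701) encodes Qa-1, the ligand of the CD94 and NKG2A receptor on natural killer cells. It was at 217.53 and 248.84 TPM in the controls and 146.42 TPM in the treated library, the lowest ratio to the control mean among the members (0.628; log2 change -0.66, SE 0.10, adjusted p = 0.0478). H2-T23 has no numbered rows, and under the other 7 alternatives with a test its adjusted p by limma was 0.0509 to 0.232. Its controls were further apart than those of H2-Q4.

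B2m (chromosome 2, 122147687 to 122153082), the light chain shared by the class I heavy chains, was at 6035.04 and 5718.13 TPM in the controls and 3929.73 TPM in the treated library. It fell by a similar measure to the H2-K1 heavy chain (log2 change -0.58, SE 0.05, adjusted p = 0.0242). The sum of H2-K1 and H2-D1 over B2m was 0.814 and 0.818 in the controls and 0.851 in the treated library. This ratio was slightly higher in the treated library, and with 1 treated library the difference has no test.

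None of the 3 peptide loading genes passed, although each lay below both controls in anti-CD71 replicate 2. Tap1 (34187556 to 34197225), one subunit of the peptide transporter, was at 120.66 and 119.0 TPM in the controls and 89.96 TPM in the treated library (log2 change -0.41, SE 0.07, adjusted p = 0.0621). Tap2 (34204479 to 34216321), the other subunit, was at 185.72 and 177.48 TPM against 152.9 TPM (log2 change -0.25, SE 0.07, adjusted p = 0.136). The ratio of Tap1 to Tap2 was 0.65 and 0.67 in the controls and 0.588 in the treated library. Tapbp (33919478 to 33929290), which encodes tapasin, was at 366.06 and 349.68 TPM against 316.8 TPM, the smallest difference among the members (log2 change -0.17, SE 0.07, adjusted p = 0.202).

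The immunoproteasome subunit gene Psmb9 (34182030 to 34187330) was at 292.65 and 269.74 TPM in the controls and 191.73 TPM in the treated library, and it fell (log2 change -0.55, SE 0.08, adjusted p = 0.0457). Psmb8 (34198195 to 34201454) was at 485.12 and 443.8 TPM against 332.12 TPM and missed the threshold (log2 change -0.48, SE 0.08, adjusted p = 0.0522). Each replaces a constitutive catalytic subunit, Psmb8 that of Psmb5 and Psmb9 that of Psmb6, and those counterparts stood higher in the treated library. Psmb5 was at 266.99 and 250.34 TPM in the controls and 300.39 TPM in the treated library, and Psmb6 at 166.44 and 152.32 against 174.92 TPM. Neither difference passed (adjusted p = 0.169 and 0.381).

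Within a library, Psmb8 over Psmb5 was 1.82 and 1.77 in the controls and 1.11 in the treated library. Psmb9 over Psmb6 was 1.76 and 1.77 in the controls and 1.10 in the treated library. The remaining exchange, Psmb10 for Psmb7, differed less, with 0.429 and 0.433 in the controls and 0.349 in the treated library. In each ratio the treated library lay below both controls, and a single treated library gives no test of it.

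**Figure D2:**
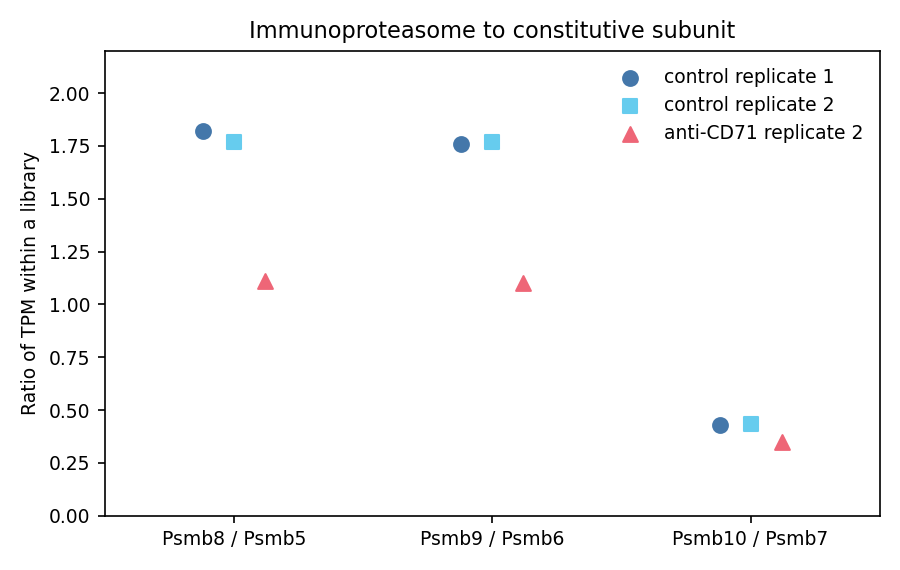
Ratio of the TPM of each immunoproteasome subunit gene to that of the constitutive subunit it replaces, 1 point for each of the 3 complete libraries, on a linear axis from 0. The Psmb8 and Psmb9 ratios of anti-CD71 replicate 2 (1.11 and 1.10) lie well under the control points, which are between 1.76 and 1.82.

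For 8 of the 10 members the deposited files list a RefSeq transcript again under the same accession with a number added, and these numbered rows were added into the gene's TPM. The main chromosomes of GRCm38.p6 are those of C57BL/6J, whose H2 haplotype is not that of C3H mice. What the numbers stand for is not given in the sources used here. Numbered rows held between 97.6% and 98.2% of the Psmb8 sum in the complete libraries, between 95.8% and 96.2% of the Tap1 sum, and between 38.5% and 42.3% of the H2-K1 sum, while B2m and H2-T23 had none.

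The row of Psmb8 without a number held 11.59 and 9.1 TPM in the controls and 5.91 TPM in the treated library, as did row 2, and rows 3 and 4 each held 230.97, 212.8 and 160.15 TPM. Tap1, Tap2 and Tapbp showed the same pattern: each of their rows had a partner with exactly its value in every complete library. The rows of H2-K1, H2-D1 and H2-Q4 had no such partner. Without the numbered rows all 10 members still had a negative log2 change and the same 6 were called. Of these, B2m and H2-T23 have no such rows to leave out. Psmb9 was left with a predicted transcript that held 12.3% of its TPM in the controls. The H2-D1 change went from -0.41 to -0.65 (adjusted p = 0.0469, against 0.0488 with the numbered rows and 0.0511 to 0.22 under other alternatives). The numbered rows of H2-D1 had log2 changes of -0.34, -0.37 and -0.31 and the row without a number -0.65.

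**Figure D3:**
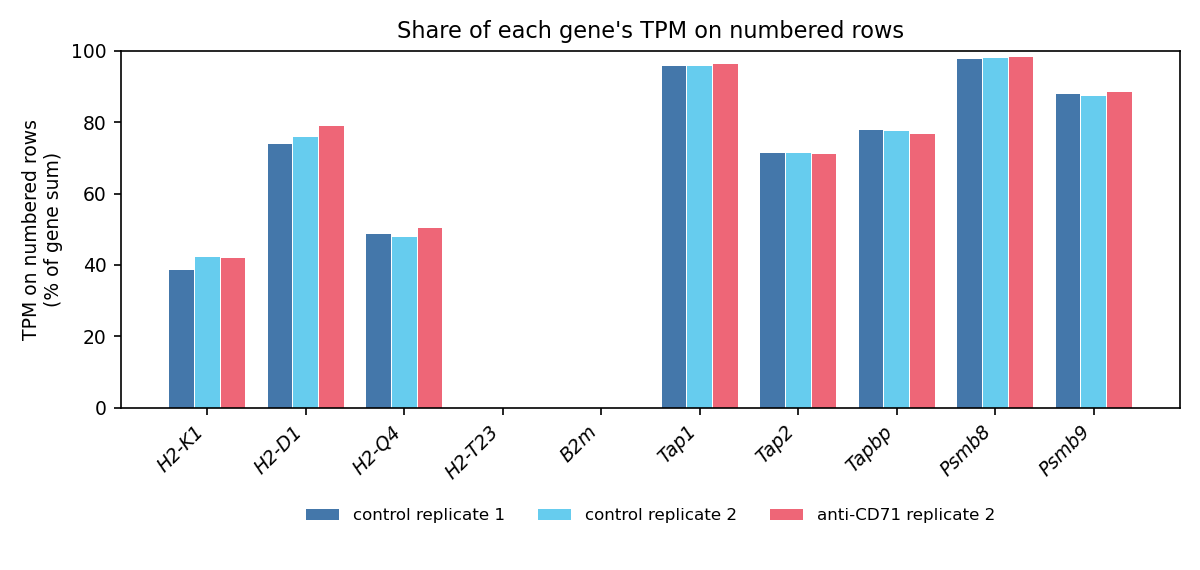
Share of each gene's TPM (percent of the gene sum, bars from 0) held by numbered rows, 1 bar for each complete library. Shares were 0.0% for H2-T23 and B2m, which have no numbered rows, and above 70% in each library for H2-D1, Tap1, Tap2, Tapbp, Psmb8 and Psmb9.

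Class I heavy chain genes also share sequence with each other. Of the 50-base windows in the longest GENCODE M21 coding transcript of each member, 28.8% of those of H2-T23, 24.3% of H2-Q4, 14.3% of H2-D1 and 8.79% of H2-K1 occurred unchanged in a transcript of another gene. For B2m, Psmb8 and Psmb9 the share was 0.0%. Reads from shared stretches may have been split among heavy chain genes, so their single values are less certain than those of B2m.

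In anti-CD71 replicate 1 the picture differed between members. Of the 7 members with any transcript listed in all 4 files, that library lay below both controls for H2-K1, H2-Q4 and Psmb9, between them for Tap2 and Psmb8, and above both for Tap1 and Tapbp. Replicate 2 lay below both controls for all 7. Over 4699 genes compared the same way, replicate 1 lay below both controls for 46.0%, replicate 2 for 40.7% and both treated libraries together for 30.8%, and 3 of the 7 members did so in both. The median log2 difference from the control mean over the 7 was -0.01 in replicate 1 and -0.61 in replicate 2, against -0.06 and -0.01 over the 4699 genes.

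For H2-Q4, whose listed rows hold 71.4% of its TPM, the values were 561.99 and 552.8 TPM in the controls and 459.51 and 350.88 TPM in treated replicates 1 and 2. The groups did not overlap (log2 change -0.47, SE 0.13, adjusted p = 0.201). For H2-K1, with 38.1% listed, they were 1513.44 and 1270.29 TPM in the controls and 1115.49 and 910.86 TPM in the treated libraries (log2 change -0.46, SE 0.13, adjusted p = 0.206). Here too both treated values lay under both controls. Psmb9, listed through a predicted transcript with 12.1% of its TPM, was at 35.01 and 34.16 TPM in the controls and 32.16 and 22.23 TPM in the treated libraries (adjusted p = 0.361).

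The transporter genes did not show this order. The listed Tap1 rows (47.3% of its TPM) held 56.75 and 56.72 TPM in the controls, 57.5 TPM in treated replicate 1 and 42.29 TPM in treated replicate 2. The listed Tap2 rows, exact partners of the unlisted ones and 50% of the sum, held 92.86 and 88.74 TPM in the controls and 90.1 and 76.45 TPM in the treated libraries. Replicate 1 was thus level with the controls for both subunits of the transporter (adjusted p = 0.529 and 0.526 over 4 libraries).

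Tapbp was listed through 1 row of 8, with 9.65% of its TPM, at 37.06 and 35.19 TPM in the controls, 49.41 TPM in replicate 1 and 27.39 TPM in replicate 2. The treated libraries lay on opposite sides of the controls (log2 change 0.03, SE 0.27, adjusted p = 0.965), and over the complete libraries the other Tapbp rows had log2 differences from -0.45 to 0.08. The Psmb8 row listed, with 2.11% of its TPM, was at 11.59 and 9.1 TPM in the controls and 10.4 and 5.91 TPM in the treated libraries (adjusted p = 0.544). H2-D1, H2-T23 and B2m had no listed transcript.

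By limma over 4 libraries 0 of these 7 members passed, and 2 had an unadjusted p under 0.05. Of the 4699 genes, 0.0426% were called lower and 851 had an unadjusted p under 0.05. No member had the 90% of its TPM listed that the main comparison of 4 libraries asked for. Without anti-CD71 replicate 2, the listed Tap1 and Psmb8 rows each had a log2 change of 0.02, and that of H2-K1 was -0.31 and that of H2-Q4 -0.28.

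**Figure D4:**
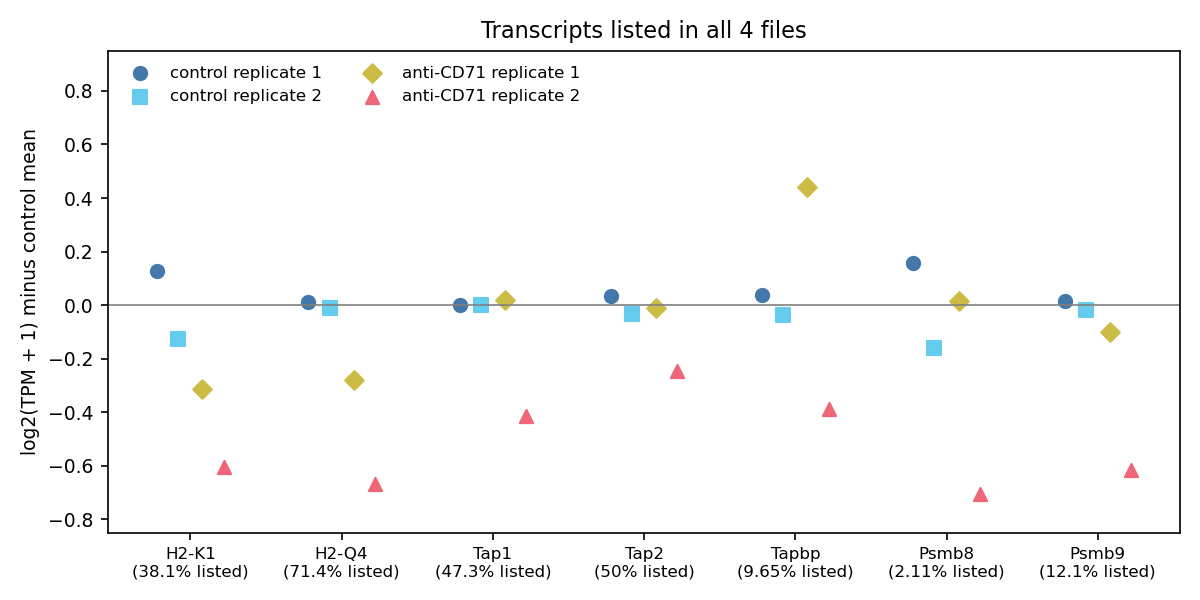
log2(TPM + 1) of the transcripts listed in all 4 files, minus the mean of the controls, for the 7 members with any; 1 point a library, with the share of the gene's TPM that the listed rows hold under each name. Anti-CD71 replicate 2 (triangles) lies below 0 for every gene, while replicate 1 (diamonds) runs from -0.31 for H2-K1 to 0.44 for Tapbp.

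The rest of the pathway was followed through 8 lists. Members aside, 73 of their genes were tested over the 3 complete libraries, and 6 of them fell and 0 rose. By limma 37 of the 73 had an unadjusted p under 0.05, against 2961 of all 11982 genes tested. That share over all genes also stands beside the counts of each list below. Of the 6, 4 are recognition genes of T, natural killer or myeloid cells. The median log2 change of the 73 was -0.10. Of them 42 lay below both controls and 27 above, against 42.5% and 39.5% of all genes tested.

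Among other class I heavy chain and class I-like genes, 1 of 14 tested fell, H2-T22, a T region heavy chain gene seen by gamma delta T cells, from 399.84 and 387.3 TPM to 269.2 TPM (log2 change -0.55, SE 0.07, adjusted p = 0.032). In all, 12 of the 14 lay below both controls, with a median log2 change of -0.40. H2-Q8 had the lowest log2 change (-1.01, adjusted p = 0.0573), and H2-Q1 was level at 86.21, 86.65 and 86.4 TPM (adjusted p = 0.997). Of the genes not in the H2 complex, Hfe, whose product binds the transferrin receptor, was at 19.88 and 21.33 TPM in the controls and 13.71 TPM in the treated library (adjusted p = 0.0629). Its listed rows, with 54.6% of its TPM, were at 10.48 and 13 TPM in the controls and 7.06 and 6.48 TPM in the treated libraries.

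Of 8 further loading genes none passed, 5 of them with an unadjusted p under 0.05 by limma, and 4 lay above both controls and 3 below. The general chaperone genes were among the higher ones. Calr, encoding calreticulin, was at 1137.11 and 1102.3 TPM in the controls and 1354.11 TPM in the treated library (log2 change 0.27, adjusted p = 0.0727). Pdia3, encoding the disulfide isomerase of the loading complex, was at 628.19 and 632.33 against 735.54 TPM (log2 change 0.22, adjusted p = 0.108).

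None of the 15 constitutive proteasome genes passed, with 4 at an unadjusted p under 0.05 by limma, yet 14 of the 15 lay above both controls, against 39.5% of all genes tested. Their median log2 change was 0.19. The most abundant were Psmb4, at 502.3 and 491.55 TPM in the controls and 508.49 TPM in the treated library (adjusted p = 0.769), and Psma7, at 470.48 and 434.53 against 552.22 TPM (adjusted p = 0.107). Psmb5 and Psma1 were listed in full for all 4 libraries: Psmb5 was at 266.99 and 250.34 TPM in the controls and 294.77 and 300.39 TPM after treatment, and Psma1 at 193.9 and 185.24 against 217.52 and 210.37 TPM. Both treated libraries lay above both controls for these genes, as they did for 28.3% of the 1563 genes listed to at least 90%, and neither passed (adjusted p = 0.136 and 0.166).

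Of 4 further immunoproteasome genes none passed, 1 of them with an unadjusted p under 0.05 by limma. Psme1, an activator subunit that interferon gamma induces, was listed in full at 519.45 and 492.89 TPM in the controls, 584.76 TPM in treated replicate 1 and 445.11 TPM in treated replicate 2. As with Tapbp, the treated libraries lay on opposite sides of the controls. Psme2 was at 698.61 and 630.42 TPM in the controls and 618.23 TPM in replicate 2 (adjusted p = 0.481).

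Among 24 regulators tested, 1 fell over 3 libraries, the interferon response factor gene Irf8, which is expressed mainly in leukocytes (50.96 and 59.0 TPM against 31.1 TPM, log2 change -0.80, SE 0.12, adjusted p = 0.0444). Nlrc5, the class I transactivator, was at 27.17 and 27.59 TPM in the controls and 20.25 TPM in the treated library (adjusted p = 0.0808). Ifng itself was at 0.73, 0.93 and 1.39 TPM and did not pass the filter. Ifnar1, a type I interferon receptor chain listed in full, fell over 4 libraries from 23.96 and 24.84 TPM to 17.58 and 17.9 TPM (log2 change -0.44, SE 0.08, adjusted p = 0.0476). It was the 1 gene called of 11 pathway genes in that fit, in which 3.45% of 1563 genes were called lower.

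**Figure D5:**
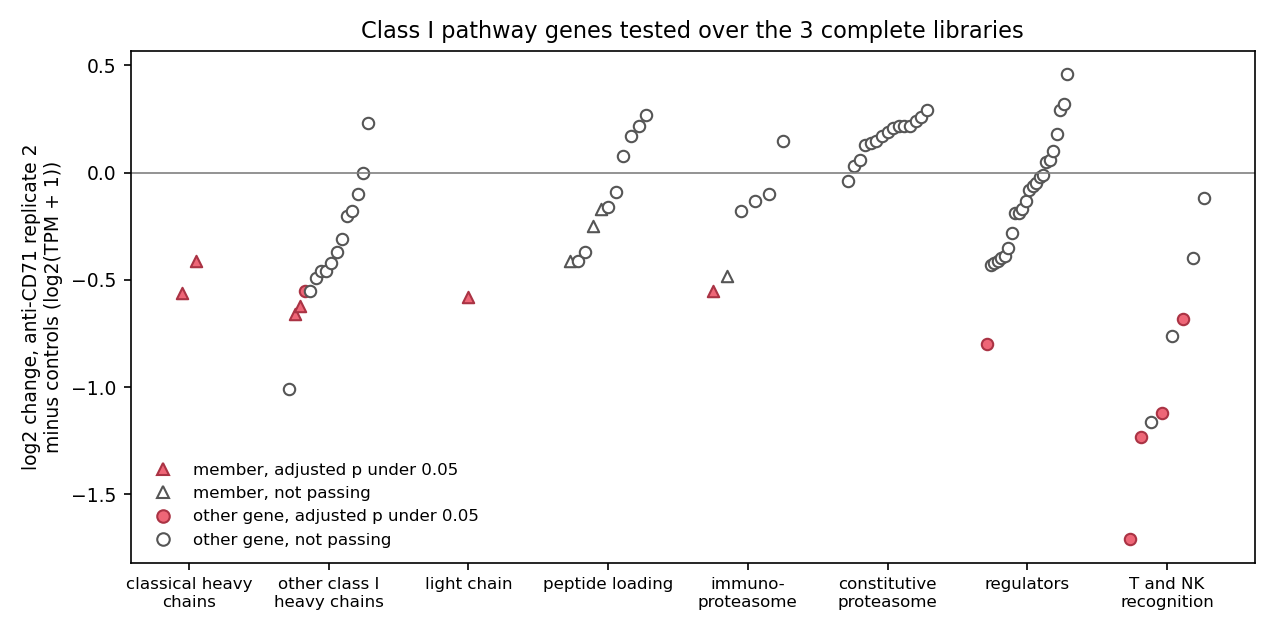
log2 change (log2(TPM + 1), anti-CD71 replicate 2 minus the control mean) of each pathway gene tested, by list; triangles are the 10 members and filled symbols passed an adjusted p of 0.05. The heavy and light chain members lie between -0.66 and -0.41, and 14 of 15 constitutive proteasome genes lie above 0.

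Genes through which lymphocytes and myeloid cells read class I molecules were lower too. Of 8 tested, 4 fell: Klra7 (log2 change -1.71), an inhibitory receptor gene of natural killer cells, Klrd1 (-1.23), which encodes CD94, the T cell receptor complex gene Cd3g (-1.12), and Pirb (-0.68), an inhibitory class I receptor gene of myeloid cells. Cd8a was at 1.19 and 1.6 TPM in the controls and 0.41 TPM in the treated library (adjusted p = 0.157). Cd3e, of the same complex as Cd3g, was at 1.25 and 1.29 TPM in the controls and 1.09 TPM in the treated library (log2 change -0.12). These genes stood low: Cd3g was at 5.87 and 5.21 against 2.0 TPM, and Klra7 at 4.99 and 6.5 against 1.05 TPM. Klrd1 rows listed in all 4 files were at 4.31 and 5.6 TPM in the controls and 2.99 and 1.6 TPM in the treated libraries.

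Pan-leukocyte and macrophage markers were lower in anti-CD71 replicate 2, while neutrophil markers were higher. All 6 pan-leukocyte markers lay below both controls in anti-CD71 replicate 2, and their summed level was 1269.03 and 1472.06 TPM in the controls and 669.73 TPM there. The 7 macrophage markers summed to 3168.45 and 3954.55 TPM in the controls and 1559.2 TPM in that library. In anti-CD71 replicate 1, 3 of the 4 pan-leukocyte genes with a listed row lay below both controls. Cd53, listed in full, was at 67.4 and 73.49 TPM in the controls and 53.27 and 49.47 TPM in the treated libraries, and the listed rows of Laptm5 (43.0% of its TPM) at 70.02 and 96.99 against 54.33 and 65.76 TPM. Coro1a and Lcp1 had 0.392% and 0.829% of their TPM listed, and the Lcp1 row lay above both controls in replicate 1, at 3.58 TPM against 2.72 and 2.82 TPM. The listed rows of the macrophage gene Csf1r were at 125.77 and 156.93 TPM in the controls and 69.38 and 66.83 TPM in the treated libraries. The 7 listed members had a median log2 difference of -0.01 from the control mean in replicate 1, from -0.31 (H2-K1) to 0.44 (Tapbp). The listed rows of Tapbp, Psmb8 and Psmb9 held only 9.65%, 2.11% and 12.1% of their TPM. Whether the class I values go with leukocyte content was not tested.

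Endothelial markers, from cells that also make class I molecules, summed to 67.66 and 68.8 TPM in the controls and 58.61 TPM in the treated library. Epidermal and hair markers summed to 0.06 and 0.04 TPM in the controls and 156.39 TPM in that library, with 6 of 8 listed at 0 in both controls, and their 2 listed genes were at 0.0 TPM in anti-CD71 replicate 1. Erythroid markers, mostly globin genes, summed to 3374.69 and 3748.04 TPM in the controls and 1006.53 TPM in the treated library. Natural killer cell markers summed to 189.88 and 175.75 TPM against 47.74 TPM, and neutrophil markers to 16.91 and 11.01 against 507.9 TPM. B cell markers were at or near 0 in each complete library, with sums of 1.34, 2.13 and 0.73 TPM. Squamous tumour markers, all 10 above both controls, summed to 1794.99 and 1888.26 against 2256.09 TPM. Fibroblast markers summed to 844.13 and 1174.3 against 772.14 TPM, and T cell markers to 17.03 and 18.97 against 7.62 TPM. Dendritic cell markers summed to 32.6 and 41.06 against 14.89 TPM. Sums were 80.16 and 105.04 against 123.53 TPM for adipocyte markers, and 123.87 and 27.84 against 78.81 TPM for skeletal muscle. The part of leukocyte, erythroid or skin content in the lower class I values was not tested.

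The 5 genes whose pattern over the 3 complete libraries was closest to the mean of the members were Scd1, Gpnmb, Mast4, Hmbox1 and Gbp10, by the distance between centred log2(TPM + 1) values (0.0039 to 0.0186). With 3 libraries this measure separates little: of 8561 candidate genes, 55 were closer than the closest member (0.052) and 1205 closer than the farthest (0.241). Gbp10, a guanylate-binding protein gene that interferon gamma induces, was at 25.7, 25.37 and 18.15 TPM.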

How the data were processed

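Per the labels' protocols, RNA was extracted with TRIZOL and libraries were prepared by BGI. The authors deposited TPM per RefSeq transcript, to 2 decimals, and the submitters' processing notes name GRCm38.p6. Which aligner and quantifier were used is not given in the sources used here. Since TPM carries no read depth, no counting interval was computed. The last line of the anti-CD71 replicate 1 file is incomplete and was not used.

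RefSeq's gene table for that build matched 58425 of 59881 transcripts, and TPM were added per gene, including 1744 rows whose accession carries an added number. Rows without a symbol held 1.42% to 1.55% of a complete library. limma 3.58.1 (R 4.3.3) was run on log2(TPM + 1) with an intensity trend, keeping genes that reached 1 TPM in at least 2 libraries. Benjamini-Hochberg adjustment covered all genes tested, and a gene was called at an adjusted p under 0.05. Fold changes on this scale understate the change of low genes. Over 4 libraries a gene entered where its transcripts listed in all files held at least 90% of its TPM. Members below that were compared with any listed transcript. Pathway genes were named by size of change among those called (up to 4 a list), or, with none called, as the 2 of highest mean. H2-Q1, H2-Q8, Hfe, Nlrc5, Ifng, Cd8a, Cd3e, Psma1 and the counterpart subunits were named after their values were seen. Candidates for the closest patterns had a mean TPM of 10 or more. The scripts were tested on simulated data with true changes larger than those of the members and equal spread in both groups. That test does not cover changes of the members' size. The members and lists were chosen with earlier results of these data known. Identity of proteins was planned, and shared 50-base windows of transcripts were used in its place.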

Additional observations from a re-analysis of the deposited data

How the results depend on the processing

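All 10 members kept a negative log2 change over the 3 complete libraries under every alternative run (100 of 100 values). These values reuse the same 3 libraries, and their sign was largely fixed beforehand. Each member lay below both controls, so leaving out a control could not reverse it. Changing the filter or the variance prior leaves the log2 change as it was. With either control left out, H2-K1 ran from -0.59 to -0.52 and B2m from -0.62 to -0.54, with no test possible. The calls were not stable. Of the 6 members called, 4 were called with a pseudocount of 0.1 TPM (H2-D1 at an adjusted p of 0.0511 and H2-T23 at 0.051 were not), 3 with a filter of a mean of 5 TPM, 3 with median scaling, 3 with curated transcripts only, and 0 with no filter, with a filter of 1 TPM in 1 library or with no trend in the variance prior. For H2-K1 the adjusted p ran from 0.0264 to 0.203 over the 8 alternatives with a test. The 12 pathway genes called lower, members included, became 4 with the mean filter, 5 with median scaling and 6 with curated transcripts. They became 0 in the other 3 fits, where limma gave 9, 9 and 8 members an unadjusted p under 0.05. The counts over all genes in those fits are given above. The median total degrees of freedom were 5.03 with the main filter, 2.88 with a filter of 1 TPM in 1 library and 3.8 with no trend. The cause of these losses was not tested.

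Over 4 libraries no member was called under any alternative. Among the listed rows, Tap1 and Psmb8 went to 0.02 each without anti-CD71 replicate 2, and Tapbp went from 0.03 to -0.39 without anti-CD71 replicate 1 and -0.01 without control replicate 2. These combinations with any transcript listed, and leaving out numbered rows, were chosen after the data were seen. The replicate numbers do not pair the samples by any label, and same-numbered deviations correlated at -0.01 over 1563 genes and 0.03 over 4699. With the replicate block 0 of the 7 members were called (2 at an unadjusted p under 0.05), and the log2 change of H2-K1 was -0.46 with an adjusted p of 0.183, against 0.206 without the block and 0.155 to 0.44 over the alternatives. Read depth is unknown, so what it limits cannot be stated.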
